A study of Homo sapiens with 6 samples.

Results

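The death-associated protein kinases form a family of 5 serine/threonine kinase genes, DAPK1, DAPK2, DAPK3, STK17A and STK17B. The members were taken by gene symbol, and the family was picked because DAPK1 was already known to differ between the groups in these data. Of the 5 members, 4 had a transcript cluster that carried their symbol alone, out of 22376 genes with such a cluster. On this array the probes of a locus are summarised into 1 value per transcript cluster. The cluster of DAPK3 also carried the symbol of MIR637, so its signal was not assigned to either gene and DAPK3 is not analysed here.

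Total RNA was hybridised to 6 Affymetrix arrays. All 6 came from subclones of the established cell line DLD-1, a human colorectal adenocarcinoma, kept for 96 h in a 3D gel of type I collagen at 1 mg/ml with no treatment. The groups, 3 arrays each, were labelled α-Cat and Δα-Cat; neither name is spelled out in the labels, which also do not say how the subclones were made, whether a group is 1 clone or whether its arrays came from separate cultures. The p-values below therefore reflect the spread among 3 arrays a group, and that spread could be technical. CTNNA1, the gene of αE-catenin, served as the check of the labels. It read 6.55, 6.52 and 6.41 in the Δα-Cat arrays and 7.79, 7.68 and 7.71 in the α-Cat arrays (log2 change -1.23, SE 0.06, limma adjusted p = 0.00212), and was lower in all 3 Δα-Cat arrays. Of the listed epithelial markers, 12 of 12 had a mean level above 4.53. That value is the 95th percentile of the mean levels of 394 olfactory receptor genes and served as a mark for dim clusters. For cell types foreign to the culture, that mark was passed by the mean level of 4 of 9 measured fibroblast genes, 7 of 11 leukocyte genes and 7 of 10 endothelial genes. Over all clusters limma called 0 genes of these 3 lists and of the epithelial list; an unadjusted p under 0.05 was reached by 0 fibroblast, 2 leukocyte, 0 endothelial and 5 epithelial genes, where 13.1% of all genes reached it.

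Death-associated protein kinases share a related N-terminal catalytic domain and are studied for their part in apoptosis, autophagy and membrane blebbing. DAPK1 and DAPK2 are held inactive by an autoinhibitory segment that calcium-loaded calmodulin relieves. DAPK1 is a long protein that adds ankyrin repeats, a cytoskeleton-binding region and a death domain to this core, and its promoter is a frequent site of DNA methylation in human tumours. STK17A and STK17B, also called DRAK1 and DRAK2, lack the calmodulin-binding segment and are largely nuclear; STK17B is known from mice as a brake on T cell receptor signalling. All of these kinases can phosphorylate the regulatory light chain of myosin II, which ties the family to contractile force.

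The start regions of the 2 calmodulin-regulated members are shown because DAPK1 carried the difference described below and DAPK2 is its closest measured relative. The RefSeq table of GRCh38.p14 held all 4 measured members. DAPK1 had 2 listed start windows and the other members 1 each, and the first DAPK1 window is printed. Each run gives the 250 bases before the listed start, 5′ to 3′ on the gene's strand, with GC boxes (GGGCGG or its reverse complement CCGCCC) and CCAAT boxes (CCAAT or ATTGG) in capitals.
DAPK1, chr9:87497617-87497866, plus strand: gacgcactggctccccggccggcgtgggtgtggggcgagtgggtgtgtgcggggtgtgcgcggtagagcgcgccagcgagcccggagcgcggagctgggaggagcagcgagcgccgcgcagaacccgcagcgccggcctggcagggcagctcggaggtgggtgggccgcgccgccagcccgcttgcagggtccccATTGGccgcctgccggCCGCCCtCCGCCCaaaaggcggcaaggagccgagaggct
DAPK2, chr15:64046486-64046735, minus strand: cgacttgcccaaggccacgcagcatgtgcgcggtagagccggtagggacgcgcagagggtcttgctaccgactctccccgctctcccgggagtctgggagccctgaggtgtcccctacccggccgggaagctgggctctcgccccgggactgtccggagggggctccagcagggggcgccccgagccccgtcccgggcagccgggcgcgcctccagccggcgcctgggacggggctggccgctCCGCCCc
The DAPK1 window held 32 CpG dinucleotides, 2 GC boxes and 1 CCAAT box in reverse, and 77.2% of its bases were G or C. The second DAPK1 window held 26 CpG dinucleotides and 1 GC box. The DAPK2 window held 27 CpG dinucleotides and 1 GC box. STK17A had 32 CpG dinucleotides with 7 GC boxes, counting overlapping matches. STK17B had 35 with 3 GC boxes and, like DAPK1, 1 CCAAT box in reverse. The median over 35116 promoter windows of the same length was 11 CpG dinucleotides, so all 5 windows of the family were CpG-rich, with or without a difference in level. At least 1 GC box was present in 42.6% and a CCAAT box in 32.0% of all windows. These matches describe the letters only; DNA methylation was not measured.

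DAPK1 was higher in every Δα-Cat array than in any α-Cat array. Its log2 level was 7.48, 7.94 and 7.93 in Δα-Cat replicates 1, 2 and 3, and 6.51, 6.71 and 6.76 in α-Cat replicates 1, 2 and 3. The groups did not overlap, and replicate 1 was the lowest array within each group. The group means were 7.79 ± 0.26 (SD, n = 3) and 6.66 ± 0.13 (SD, n = 3), a difference of 1.12 on the log2 scale (SE 0.14), or 2.18-fold. In such bulk RNA, a change in the share of cells that express a gene and a change in RNA per cell cannot be told apart. Between arrays of the same number the difference was 0.97, 1.23 and 1.17. By absolute difference DAPK1 ranked 26 of 22376 genes. This contrast is the one that brought DAPK1 to attention, so these values describe the choice and are not evidence for it. For the same reason its limma adjusted p over all clusters, 0.0374, is given as the value that chose it. With 1 array left out in turn that adjusted p ranged from 0.0193, without Δα-Cat replicate 1, to 0.169, and it stayed under 0.05 in 1 of 6 such fits, while the difference lay between 1.05 and 1.28.

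The other measured members differed less. DAPK2, the shorter calmodulin-regulated kinase, read 5.92, 6.11 and 6.50 in the Δα-Cat arrays and 5.80, 5.94 and 5.97 in the α-Cat arrays. The groups overlapped, because Δα-Cat replicate 1 lay below α-Cat replicates 2 and 3, and Δα-Cat replicate 3 stood highest. The means were 6.18 ± 0.29 and 5.90 ± 0.09 (SD, n = 3 each), a log2 difference of 0.27 (SE 0.14). Without Δα-Cat replicate 3 that difference was 0.12. Among same-numbered arrays it was 0.12, 0.18 and 0.52, positive in each. The same array was also the highest for CD68, a lysosomal glycoprotein used as a macrophage marker, at 7.61 against 6.44 and 6.80 in the other Δα-Cat arrays. CD14, a monocyte and macrophage receptor, went the other way, with 4.93, 4.96 and 4.99 in Δα-Cat and 5.43, 5.89 and 5.47 in α-Cat (log2 change -0.64, SE 0.12, limma adjusted p = 0.12, and 0.0409 with single-symbol clusters alone). CSF1R and ITGAM, further myeloid markers named after their values were seen, had changes of -0.0025 and 0.0068. PTPRC, a leukocyte marker also named after its values were seen, read 2.28, 2.32 and 2.28 in Δα-Cat and 2.30, 2.33 and 2.27 in α-Cat. These values lay under the mark for dim clusters. Across the 11 measured leukocyte markers the mean log2 level per array was 4.37 to 4.49 in Δα-Cat and 4.39 to 4.43 in α-Cat. The labels name a cell line, and the part of any such cells in the DAPK2 value was not tested. DAPK2 kept the order of DAPK1 in the α-Cat arrays, with replicate 1 lowest and replicate 3 highest. In the Δα-Cat arrays the orders differed. There DAPK1 was highest in replicate 2, at 7.941 against 7.935 in replicate 3, and DAPK2 in replicate 3. Nothing is read from an order of 3 arrays.

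STK17A and STK17B, the members without a calmodulin-binding segment, lay at nearly the same level in both groups. STK17A read 5.70, 5.78 and 5.72 in Δα-Cat and 5.85, 5.76 and 5.70 in α-Cat, a log2 difference of -0.04 (SE 0.06). STK17B read 6.91, 7.08 and 6.96 in Δα-Cat and 6.997, 6.87 and 6.96 in α-Cat, a log2 difference of 0.04 (SE 0.07). Both genes overlapped between groups, and their sign changed when 1 array was left out: STK17A was at 0.0046 without α-Cat replicate 1, and STK17B at -0.01 without Δα-Cat replicate 2. Every array of the 4 measured members lay above the olfactory receptor mark of 4.53. Genes of cell types foreign to the culture also passed that mark, so passing it does not show that a member was expressed. Levels are not ranked between members, since probes of different clusters differ in brightness.

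**Figure D1:**
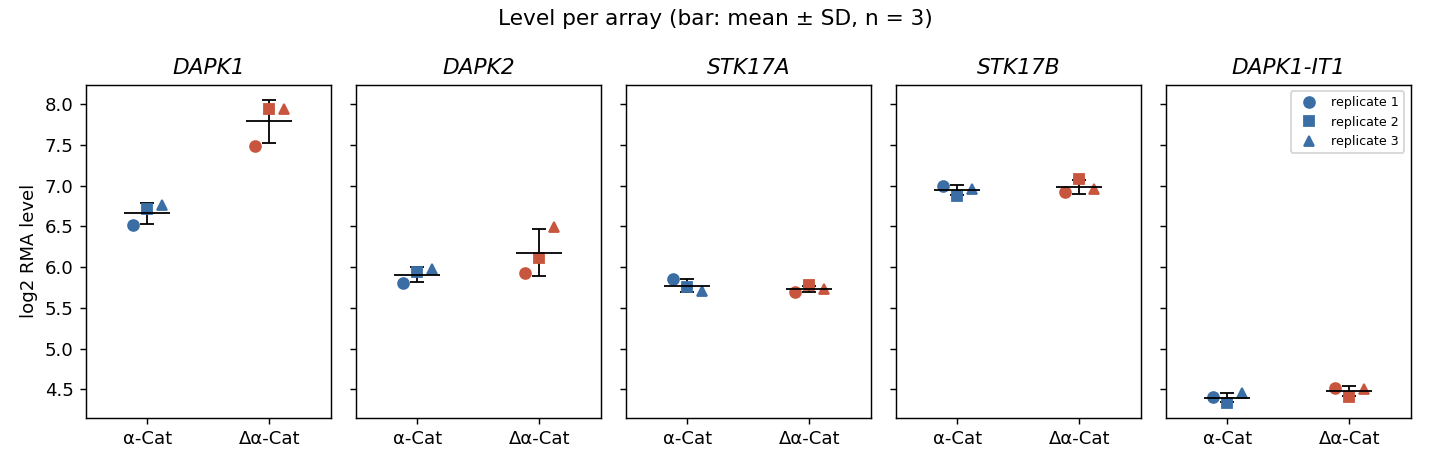
Log2 RMA level of the 4 measured kinase genes and of DAPK1-IT1 in each array, by group; symbols mark the replicate number and bars the mean ± SD (n = 3). The Δα-Cat arrays of DAPK1 lie between 7.48 and 7.94, above all α-Cat arrays, while the groups overlap in the other 4 panels.

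Counted over the family, 1 of 4 measured members passed the limma threshold over all clusters, where 0.626% of all genes did in either direction, 0.371% as higher and 0.255% as lower. Groups did not overlap for 1 of 4 members, against 21.3% of all genes. Since the family was drawn from this contrast, nothing is read from either share. The median difference over all genes was 0.00, with a positive sign in 49.8% of them.

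**Figure D2:**
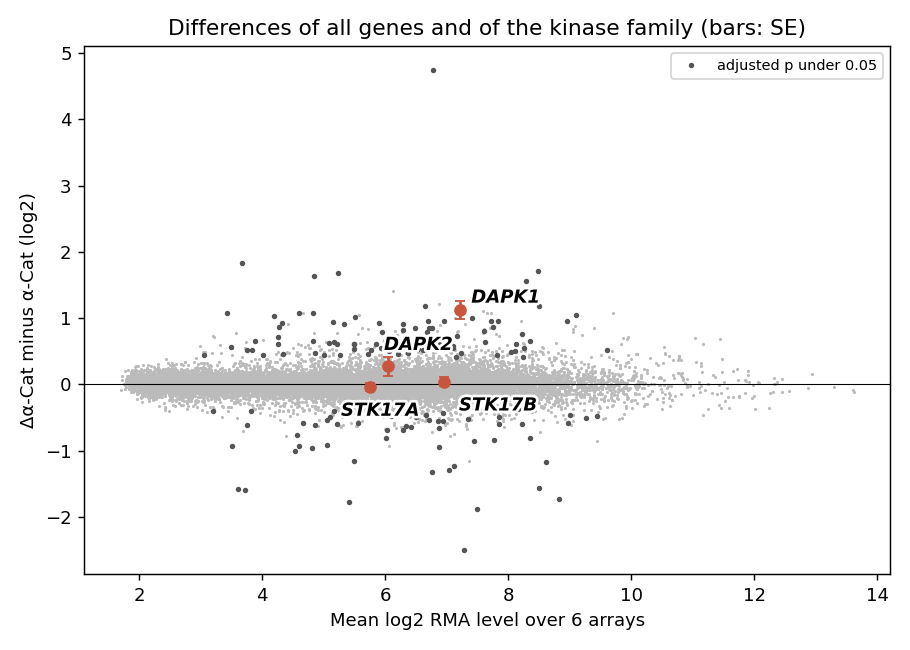
Δα-Cat minus α-Cat difference on the log2 scale against the mean level over 6 arrays, for 22376 genes (grey points; dark points passed an adjusted p under 0.05), with the 4 measured kinases in red and bars for their SE. DAPK1 stands at 1.12, apart from DAPK2 at 0.27 and from STK17A and STK17B near 0.

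The intronic transcript DAPK1-IT1 and the 2 genes beside DAPK1 did not pass the test. DAPK1-IT1 read 4.52, 4.41 and 4.50 in Δα-Cat and 4.41, 4.34 and 4.45 in α-Cat, with overlapping groups and a log2 change of 0.08 (SE 0.06, limma adjusted p = 0.773). All 6 of its values lay under the mark for dim clusters, so its level was not shown to exceed background. GAS1, a membrane protein that can arrest growth, and CTSL, the lysosomal protease cathepsin L, are the protein-coding genes on either side of DAPK1 on chromosome 9. GAS1 had a change of -0.05 (SE 0.08, limma adjusted p = 0.924). CTSL had a change of -0.12 (SE 0.05, limma adjusted p = 0.527), and its groups did not overlap, with 7.17 to 7.27 in Δα-Cat and 7.33 to 7.34 in α-Cat. The neighbours of DAPK2 were HERC1 at 0.16 (SE 0.09) and CIAO2A at -0.11 (SE 0.06). Those of STK17A, HECW1 and COA1, had changes of 0.04 and -0.09, and those of STK17B, DNAH7 and HECW2, of 0.03 and 0.02. None of these 8 neighbours passed the test, with limma adjusted p-values from 0.527 to 0.962.

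The genes with a profile closest to DAPK1 were chosen by the smallest root-mean-square distance between log2 values centred on each gene's own mean, over the 6 arrays. They were EEF1A2, a translation elongation factor subunit typical of muscle and neurons, at a distance of 0.05, and RASGRF2, an exchange factor for Ras family GTPases, at 0.11. NECTIN3, a cell adhesion molecule, followed at 0.12, and IGFL1, a secreted insulin growth factor-like protein, and NRIP1, a nuclear receptor corepressor, both at 0.13. EEF1A2 read 9.37, 9.74 and 9.77 in Δα-Cat and 8.38, 8.66 and 8.70 in α-Cat. Like DAPK1, it was lowest in replicate 1 of each group. Differences between groups were 1.05 for EEF1A2, 1.02 for RASGRF2, 1.08 for NECTIN3, 0.93 for IGFL1 and 0.93 for NRIP1. These genes were selected for this shape, so no test is attached to them.

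**Figure D3:**
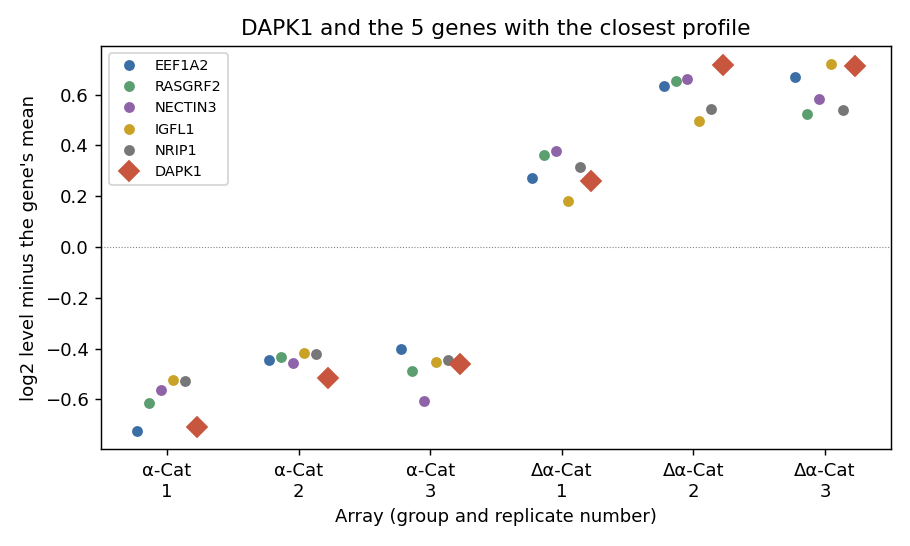
Log2 level minus each gene's mean over 6 arrays, for DAPK1 (red diamonds) and the 5 genes nearest to it, by array. All 6 genes lie above 0 in the Δα-Cat arrays and below 0 in the α-Cat arrays, and each is lowest in replicate 1 among the Δα-Cat arrays.

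No regulator or substrate of the family passed the test. Of 35 listed partners and substrates, 29 had a single-symbol cluster, and limma called 0 over all clusters; 4 had an unadjusted limma p under 0.05 (13.1% of all genes did), and 1 passed, as higher, when single-symbol clusters alone were tested. That last setting called 2.94% of all genes, 1.64% as higher and 1.3% as lower. The myosin light chain genes had changes of 0.20 (SE 0.13) for MYL9, -0.05 (SE 0.09) for MYL12A and 0.02 (SE 0.07) for MYL12B, none past the test. MYL9 was highest in Δα-Cat replicate 3, at 7.19 against 6.84 and 6.63, the array that was also highest for DAPK2. KLHL20, the adaptor of a cullin ligase that marks DAPK1 for degradation, read 6.89, 6.85 and 6.74 in Δα-Cat and 6.57, 6.52 and 6.56 in α-Cat. Its change was 0.28 (SE 0.06, limma adjusted p = 0.156), and 0.0428 with single-symbol clusters alone. PPP1R12A, the myosin phosphatase subunit phosphorylated by DAPK3, had a change of 0.27 (SE 0.06, limma adjusted p = 0.177). The median change of the list was 0.02, with a positive sign in 16 of 29.

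The related kinases of the calmodulin-dependent group held 3 calls among 29 measured genes of 32, 1 higher and 2 lower, where 0.626% of all genes were called. CAMK2D, a multifunctional calmodulin-dependent kinase, read 7.33, 7.46 and 7.35 in Δα-Cat and 6.90, 6.78 and 6.78 in α-Cat. It rose by 0.56 (SE 0.06, limma adjusted p = 0.0332; the replicate block gave 0.0748). MAPKAPK3, a kinase activated by p38, read 7.13, 6.99 and 7.15 against 7.59, 7.58 and 7.65. It fell by 0.52 on the log2 scale (SE 0.06, limma adjusted p = 0.0379; blocking on the number gave 0.0614). MYLK, the smooth muscle type myosin light chain kinase, had a mean of 4.96 ± 0.05 in Δα-Cat against 5.36 ± 0.04 in α-Cat (SD, n = 3 each). It fell by 0.41 on the log2 scale (SE 0.06, limma adjusted p = 0.0474; with the block it was 0.104). The groups did not overlap for these 3 genes, and none of them passed in any of the 6 fits that left out 1 array. With single-symbol clusters alone 2 of the 29 were higher and 2 lower. The added gene was MAPKAPK2, the paralogue of MAPKAPK3, named after its values were seen, which read 7.36, 7.31 and 7.41 in Δα-Cat and 6.91, 6.97 and 7.03 in α-Cat. Its change was 0.39 (SE 0.06, limma adjusted p = 0.0654, and 0.015 with single-symbol clusters alone), opposite in sign to that of MAPKAPK3. The median change over the list was -0.02, with a positive sign in 8 of 29.

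Of 27 measured genes of 30 for actomyosin contractility, MYLK, also in the list above, was the only call over all clusters. Over all genes 0.626% were called. The other 26 did not pass. An unadjusted limma p under 0.05 was reached by 7 of the 27, against 13.1% of all genes. When single-symbol clusters alone were tested, a setting that called 2.94% of all genes, MYL6 and CDC42BPA were higher and MYLK lower. CDC42BPA, a myotonic dystrophy-related Cdc42-binding kinase, was named after its values were seen and had a change of 0.42 (SE 0.06, limma adjusted p = 0.0641 over all clusters). MYL6, the essential myosin light chain and likewise named after its values were seen, had a change of 0.28 (SE 0.06, limma adjusted p = 0.144). The list's median was 0.02, with a positive sign in 14 of 27.

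Most core autophagy genes had small positive differences, none past the test. Of 32 measured genes, 28 had a positive sign and the median was 0.05. The positive count was 29 after cyclic loess, and 23 to 30 with 1 array left out. Median centring, which moves all differences by the same amount, gave 28. The mean log2 level over the list was 6.69 to 6.72 in the Δα-Cat arrays and 6.59 to 6.65 in the α-Cat arrays. No gene passed over all clusters with limma, and 8 had an unadjusted p under 0.05, against 13.1% of all genes. UVRAG, a partner of beclin 1, had a change of 0.31 (SE 0.06, limma adjusted p = 0.128). GABARAPL1, an ATG8-type protein of the autophagosome membrane, had a change of -0.29 (SE 0.05, limma adjusted p = 0.111). With single-symbol clusters alone 2 genes were higher and 1 lower, at 0.0345 for UVRAG and 0.0256 for GABARAPL1; the third, the autophagy receptor gene NBR1, was named after its values were seen and had a change of 0.40 (SE 0.08).

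Among 23 measured genes of 29 for death receptors and extrinsic apoptosis, limma called 0 over all clusters and 8 had an unadjusted p under 0.05, against 13.1% of all genes. MLKL, which executes necroptosis, read 6.15, 6.45 and 6.37 in Δα-Cat and 6.78, 6.89 and 6.91 in α-Cat. Its change was -0.54 (SE 0.09, limma adjusted p = 0.0852, and 0.0251 with single-symbol clusters alone). TNFSF10, which encodes the death ligand TRAIL, had a change of 0.48 (SE 0.11, limma adjusted p = 0.182), with a mean in α-Cat of 4.199, under the mark for dim clusters. The median change of the list was 0.00, with a positive sign in 12 of 23. The lists were chosen with earlier results of these data known. No count in them, the calls among the related kinases included, is read as particular to a list.

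**Figure D4:**
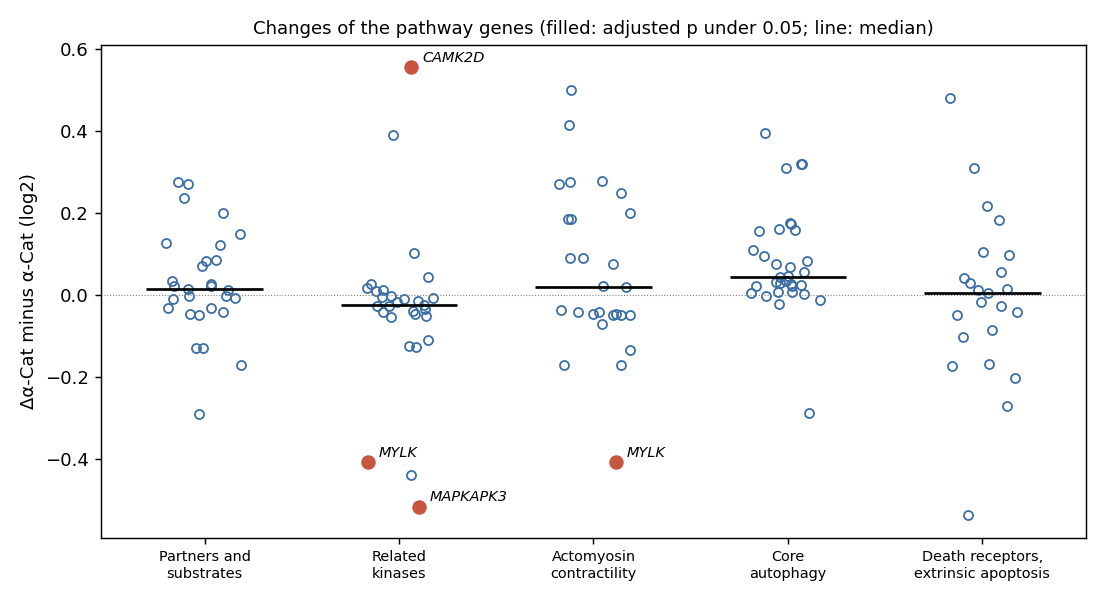
Log2 change, Δα-Cat minus α-Cat, of each measured gene in 5 lists around the kinase family; filled red points passed a limma adjusted p under 0.05 and black lines are medians. MYLK is in 2 of the lists, and the medians lie between -0.02 and 0.05.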

How the data were processed

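The deposited values were produced by the authors in Affymetrix Expression Console using RMA, a method that corrects background, normalizes by quantiles and summarises probes, per the submitters' processing notes. No version or genome build is given in the sources used here. Each deposited score was taken as a log2 level, because RMA gives log2 values and the rows kept ran from 1.26 to 14.24. Of 70513 rows, 4987 with a value lacking its decimal point were left out, and 65526 clusters were tested. Of these, 22686 had 1 gene symbol in the platform annotation, 1385 several and 41455 none. A second table with 6 columns of per-sample values was not used, since its column names match no label. Median log2 levels per array were 4.02 to 4.07; the number of arrays limits the precision.

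Among several single-symbol clusters of a gene the brightest was taken; each measured family member had 1. Differences are Δα-Cat minus α-Cat, fitted with limma 3.58.1 in R 4.3.3 (lmFit, eBayes, no covariate), with Benjamini-Hochberg adjustment over all clusters and a call at an adjusted p under 0.05. As a check of the code, the fit was also run on simulated arrays. Their noise was independent, unlike the correlated residuals given below, so nothing about these data is read from that run. Tables used Python 3.11.15 with pandas 2.3.3. Same-numbered arrays of the groups had residuals correlating at 0.219, 0.214 and 0.128, so a replicate block was run as an alternative; the meaning of a number is not stated in the labels. Members, lists and rules were chosen with earlier results of these data known. Named were the members, CTNNA1, myosin light chain genes, up to 4 called genes per list or else 2 with the smallest p, adjacent genes, transcripts named after a member and the 5 profiles nearest DAPK1; exceptions are stated. Alternatives were cyclic loess, median centring, trended robust eBayes, brighter clusters, single-symbol clusters and leaving out each array.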

Additional observations from a re-analysis of the deposited data

How the results depend on the processing

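The replicate block, trended eBayes, brighter clusters and single-symbol clusters leave a member's difference unchanged by construction. Leaving out 1 of 3 arrays cannot move it by 1 SD between arrays. Nor can it turn the sign of DAPK1, whose groups do not overlap. Median centring moves the differences of all genes by the same amount, fixed by the array medians, so it does not probe a member. Cyclic loess could move the differences further. Cyclic loess and median centring gave 1.12 and 1.12 for DAPK1 and 0.28 and 0.27 for DAPK2. For STK17A they gave -0.03 and -0.04, and for STK17B 0.04 and 0.04. No member has a second single-symbol cluster, so the mean over clusters of a gene was not run. The count of called clusters was 224 (138 higher, 86 lower). It was 458 (274 and 184) for clusters above the median level and 662 (369 and 293) for single-symbol clusters. In those fits fewer clusters share the adjustment, and eBayes was rerun, so SEs differ too. For CAMK2D the SE was 0.065 in the main fit and 0.058 with single-symbol clusters. The part of each in the larger counts was not tested. Median centring gave 91 higher, and the replicate block 156 in all. Leaving out 1 array gave 29 to 120 clusters, 19 to 85 higher and 10 to 35 lower, the fewest without α-Cat replicate 1; fewer arrays enter these fits. Of 35 genes named beside the members, 9 were called, 14 with single-symbol clusters, and 1 to 6 with 1 array left out; the naming rule takes called genes and profiles like DAPK1, so it fixes most of this count and nothing is read from it against the 0.626% of all genes called. The replicate block ended the calls of CAMK2D, MAPKAPK3 and MYLK and changed no other call of a named gene, and median centring that of CAMK2D (adjusted p = 0.0535). The genes chosen for a profile like DAPK1 are not judged by these settings. Changes near 0 turned sign with 1 array left out, over -0.129 to 0.022 for GAS1, -0.0204 to 0.0462 for HECW2, -0.0959 to 0.0258 for MYL12A and -0.0262 to 0.0614 for MYL12B; the cause was not tested. No detection calls were at hand, so differences of dim clusters are those of the deposited values.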
